A study of Mus musculus with 124 samples.

Results

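The DNAJ (Hsp40) co-chaperone genes were followed in mouse cerebral cortex and liver through 6 h of sleep deprivation and the days after it. Members were all genes whose symbol starts with Dnaja, Dnajb or Dnajc followed by a number. This gave 39 members among the 17108 named genes of the cortex table (4 of class A, 10 of class B and 25 of class C) and 38 among the 13338 of the liver table (4, 9 and 25). In all there were 40 distinct genes, of which 37 had values in both tissues. Dnajb3 and Dnajc6 had values in cortex alone and Dnajc22 in liver alone.

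Poly(A) RNA of single tissues was sequenced from 62 mice aged 11 to 12 weeks, housed under a cycle of 12 h light and 12 h dark, and each mouse gave 1 cortex and 1 liver library. Gentle handling held the deprived mice awake over the first 6 h of the light phase, which starts at zeitgeber time ZT0, and they were then left to sleep. Times are counted from the start of an undisturbed baseline day, so that T27 lies after 3 h of deprivation, T30 at its end after 6 h, T36 and T42 at dusk and in the first night after it, T48 to T78 on the following days, and T192 and T198 about a week later. Each of the 12 deprived times had 3 mice. Controls were mice not deprived, killed at ZT0 (8 mice), ZT3 (3), ZT6, ZT12 and ZT18 (5 each), and each deprived group was set against the controls of the same time of day. The labels give no genotype, strain or sex.

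DNAJ proteins carry a J domain, which stimulates the ATPase of HSP70 chaperones and so makes them hold unfolded protein. Class A members resemble bacterial DnaJ and have a zinc-binding region, class B members keep the glycine- and phenylalanine-rich stretch but lack that region, and class C members share only the J domain. Members sit in the cytosol, the lumen and membrane of the endoplasmic reticulum (ER), mitochondria, synaptic vesicles and the ribosome, and so direct HSP70 to different jobs. Some cytosolic members are induced by heat shock through HSF1, and some ER members by the unfolded protein response, the programme that answers misfolded protein in the ER.

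RefSeq promoters (GRCm38.p6, from 250 bases before a start site to 50 bases from it on, 300 bases) were found for 33 of the 40 members. These had 46 promoters between them, since some genes have several start sites. Of 32851 promoters of all genes, 0.119% held an ER stress element (CCAAT and CCACG 9 bases apart), 0.603% a heat shock element (GAA, TTC and GAA, or TTC, GAA and TTC, each 2 bases apart), 0.676% the letters TGACGTGG and 1.79% the cAMP response letters TGACGTCA, on either strand. Among members 1 gene held each: Dnajc3 the ER stress element, Dnajb6 the heat shock element, Dnajc25 TGACGTGG and Dnajc27 TGACGTCA. A further pair of motifs was searched after the data had been seen. The second form of the ER stress element (ATTGG and CCACG 1 base apart) was in 0.0365% of promoters and, among members, in Dnajb11. A pair of inverted triplets (GAA and TTC, or TTC and GAA, 2 bases apart, which also lies inside every heat shock element) was in 15.1% of all promoters and in 7 of the 46 member promoters, a like share. These belong to 6 genes: Dnaja1, Dnaja4, Dnajb4, Dnajb6, Dnajc10 and Dnajc27. None of these motifs was in the windows of Dnajb1, Dnajb5 or Dnajc21, which says only that these letters are not there. The promoters below belong to members described in the results and hold the ER stress elements, the heat shock element and, in Dnaja4, a repeated pair of triplets. They are printed 5′ to 3′ on the gene's strand, which is the plus strand in all of them, with the matches in capitals. Positions are counted from the start site of the printed promoter, taken as 0. Dnajc3 is at chr14:118937682-118937981 with its match at positions -105 to -87, and Dnajb11 at chr16:22857595-22857894 with its match at 7 to 17. Dnajb6 is at chr5:29735648-29735947 with its match at -46 to -34, and the same match lies at -127 to -115 in its other promoter. Dnaja4 is at chr9:54699309-54699608 with its pairs at -90 to -83 and -52 to -45. The Dnajb6 and Dnaja4 matches lie after the GENCODE starts of these genes, 29735688 and 54698873.
Dnajc3: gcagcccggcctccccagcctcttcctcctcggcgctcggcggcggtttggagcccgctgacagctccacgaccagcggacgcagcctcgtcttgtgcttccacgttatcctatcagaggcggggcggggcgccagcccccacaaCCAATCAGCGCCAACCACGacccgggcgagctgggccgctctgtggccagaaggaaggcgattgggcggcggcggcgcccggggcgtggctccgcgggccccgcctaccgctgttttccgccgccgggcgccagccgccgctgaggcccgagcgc
Dnajb11: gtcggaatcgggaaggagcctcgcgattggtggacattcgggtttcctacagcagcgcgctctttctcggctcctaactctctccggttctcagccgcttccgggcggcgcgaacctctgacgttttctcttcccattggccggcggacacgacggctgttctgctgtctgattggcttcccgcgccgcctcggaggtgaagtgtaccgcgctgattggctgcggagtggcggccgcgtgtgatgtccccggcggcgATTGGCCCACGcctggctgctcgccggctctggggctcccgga
Dnajb6: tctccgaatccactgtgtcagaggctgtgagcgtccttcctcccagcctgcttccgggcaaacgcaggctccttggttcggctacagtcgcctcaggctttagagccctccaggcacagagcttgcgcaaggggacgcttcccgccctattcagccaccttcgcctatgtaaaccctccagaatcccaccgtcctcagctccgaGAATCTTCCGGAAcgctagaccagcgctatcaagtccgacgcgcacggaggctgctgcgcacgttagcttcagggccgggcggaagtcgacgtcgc
Dnaja4: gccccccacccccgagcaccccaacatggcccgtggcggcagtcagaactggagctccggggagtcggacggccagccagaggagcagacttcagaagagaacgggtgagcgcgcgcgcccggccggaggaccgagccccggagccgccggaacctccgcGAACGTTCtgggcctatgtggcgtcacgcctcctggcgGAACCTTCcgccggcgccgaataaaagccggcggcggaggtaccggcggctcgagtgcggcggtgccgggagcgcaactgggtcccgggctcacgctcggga

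Marker genes matched the labelled tissues: 5 neuronal markers summed to 7131 to 8693 CPM (counts scaled to a common library size) in every cortex library, and 5 hepatocyte markers to 76099 to 115924 CPM in every liver library. No library was a copy of another in its group, since the root mean square difference within pairs of 1 group was 0.230 to 0.376 log2 units in cortex and 0.329 to 0.601 in liver. Libraries of different groups were not compared in this way. Cortex ZT3 controls, which T27 is set against, had summed choroid plexus markers (4 of 5 measured) of 10.0 to 125.8 CPM, above the 6.46 to 8.45 CPM of the T27 libraries, and their part in the T27 results was not tested. Without any 1 ZT3 library, Dnajb1, Dnajb5, Dnajb11, Dnajc1, Dnajc3 and Dnajc21 kept their T27 calls. This cannot bear on the choroid plexus markers, since every ZT3 library lay above the T27 libraries in them. Summed markers also lay apart, with no overlap, for ciliated ependyma (3 of 6 measured) in cortex, with 5.12 to 5.64 CPM at T30 against 3.79 to 4.65 at ZT6, and 4.80 to 5.86 at T36 against 3.44 to 4.24 at ZT12. Cortical microglia markers (5 of 5) summed to 204.4 to 211.2 CPM at T30 against 212.2 to 220.4. In liver, cholangiocyte markers (5 of 5) summed to 37.6 to 40.9 CPM at T30 against 48.8 to 62.5, and to 49.3 to 62.4 at T36 against 35.7 to 43.6. Hepatocyte markers there summed to 88060 to 96939 CPM at T42 against 100769 to 109034. Some lists for cell types of the other tissue lay apart too, such as neuronal markers in liver (2 of 5 measured), with 6.18 to 10.4 CPM at T30 against 14.1 to 23.1. The part of these shifts in the results was not tested. Within the liver table, values had been adjusted for a factor that the labels do not name, so liver counts are also given with that factor in the fit. Its levels, inferred from differences within groups, held 50, 8 and 4 libraries. In bulk tissue, fewer cells of a type and less RNA per cell cannot be told apart.

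The most abundant members of undisturbed cortex and liver were partly different, with Dnaja2 high in both. Levels between genes were compared per kb of merged exon, as the median CPM per kb over 26 control libraries. In cortex the highest were Dnajc6 (71.3 CPM per kb; auxilin, which strips clathrin from vesicles with Hsc70), Dnaja2 (65.7; a cytosolic class A member) and Dnajc5 (62.1; cysteine string protein, a chaperone on synaptic vesicles), and the lowest was Dnajb3 at 0.643. In liver the highest were Dnajc22 (56.7), Dnajc3 (55.0; an ER protein also called p58IPK) and Dnaja2 (35.1). Dnajc5 was at 10.3 CPM per kb in liver. The ER members Dnajb9 (29.0) and Dnajb11 (28.7) came next there, against 16.3 and 14.3 in cortex. Dnajb5 was at 23.5 in cortex and 1.05 in liver, and Dnajc27, a small GTPase with a J domain, at 26.9 and 0.203. These levels set 2 separately normalised tables side by side and were not tested. The plot of levels per kb shows every member.

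**Figure D1:**
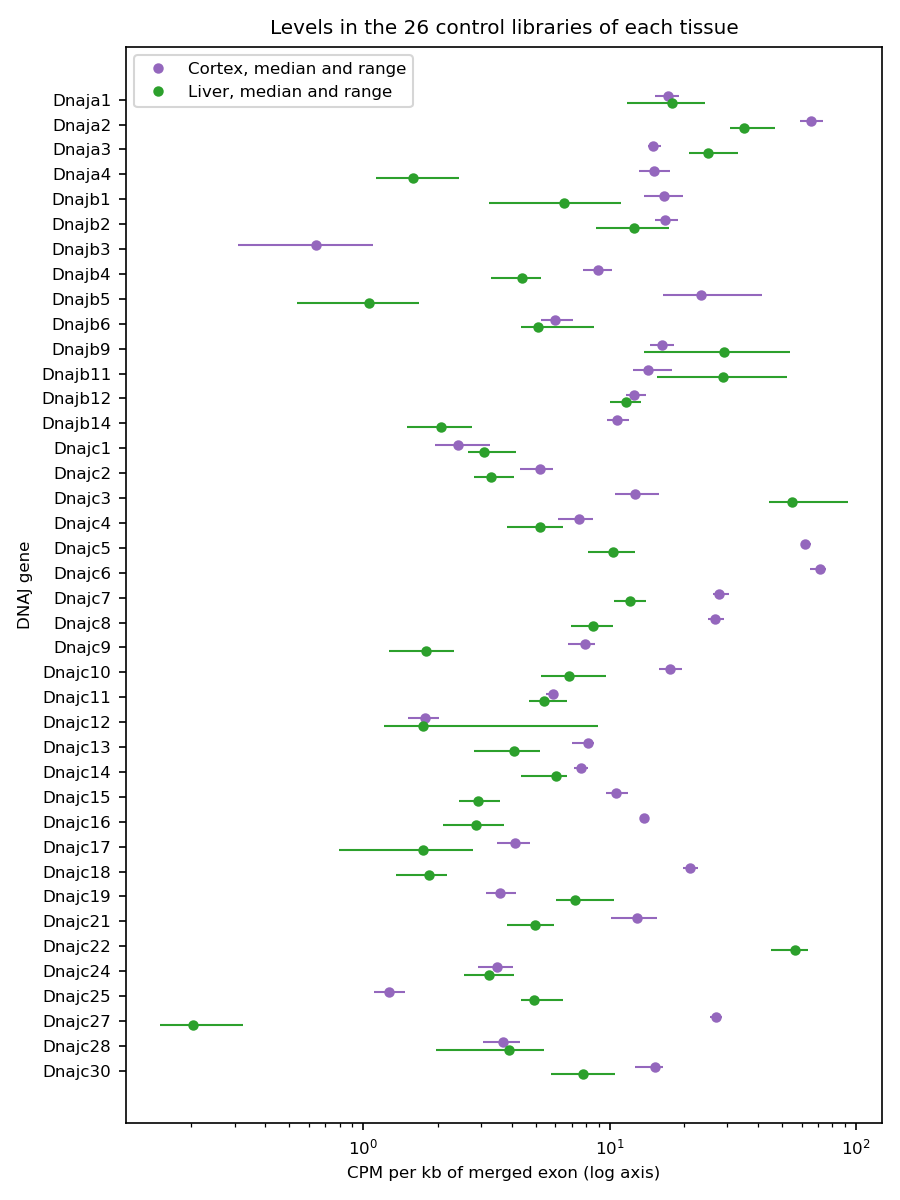
Level of each DNAJ gene in CPM per kb of merged exon (log axis) in the 26 control libraries of each tissue; points are medians and lines run from the lowest to the highest library. Cortex is led by Dnajc6, Dnaja2 and Dnajc5, and liver by Dnajc22, Dnajc3 and Dnaja2.

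Across the undisturbed day, 20 of 39 members varied in cortex, beside 41.9% of all genes, and 29 of 38 in liver, beside 52% of all genes (limma F test over the 5 control times, adjusted p under 0.05). By class, 2 of 4 class A, 7 of 10 class B and 11 of 25 class C members varied in cortex. In liver it was 4 of 4, 9 of 9 and 16 of 25. The median range between the highest and lowest control time was 0.16 log2 units for members and 0.21 for all genes in cortex, and 0.38 and 0.42 in liver. With batch 1 controls alone, the liver count fell to 17 members, and calls over all genes were not counted in that fit.

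The 8 cortical members with the largest called daily ranges were lowest between ZT3 and ZT12. Ranges lie between fitted means, which include the batch term, and so can differ slightly from those between the plain means given here. Dnajb3, at a very low level, had a wider range than most of these (0.45) and did not pass (adjusted p = 0.264). Dnajb5 (chromosome 4, 42949814 to 42959425), a cytosolic class B member, had 7.37 to 7.94 log2 CPM with a median of 7.62 in the 8 ZT0 controls. It had 6.74, 7.03 and 7.20 log2 CPM at ZT3, a median of 6.74 at ZT6, 6.83 at ZT12 and 7.17 at ZT18. All ZT0 libraries thus lay above every ZT3, ZT6 and ZT12 library, with a range of group means of 0.82 log2 units (adjusted p = 8.31e-10). Dnajc21 (chromosome 15, 10446756 to 10470516), which helps mature the large ribosomal subunit, ranged by 0.49 with its highest mean at ZT0 (adjusted p = 5.47e-09). Dnajc1, an ER membrane protein with its J domain in the lumen, ranged by 0.40 and was also highest at ZT0. Dnajc3 (0.40), Dnajb1 (0.36), Dnajb11 (0.35) and Dnaja4 (0.33) were highest at ZT18, the middle of the dark phase. The eighth, Dnajc17, ranged by 0.30, was highest at ZT6 and lost its call with batch 1 controls alone (adjusted p = 0.0699).

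In liver the daily ranges were wider and their peaks fell at several times of day. Dnajb6 (chromosome 5, 29735688 to 29818134), which keeps aggregation-prone proteins soluble, stood apart at dusk. It had 5.56, 5.61, 5.65, 5.67 and 5.71 log2 CPM at ZT12, and every other control lay between 4.73 and 5.25. The range was 0.83 log2 units (adjusted p = 7.09e-15). Dnajb2 (chromosome 1, 75236406 to 75245692), a co-chaperone with ubiquitin-binding motifs, had a median of 6.16 at ZT18 and 5.34 at ZT6, a range of 0.80 (adjusted p = 1.90e-14). The ER member Dnajb9 ranged by 1.00, with means of 6.57 at ZT0 and 6.46 at ZT12 against 5.59 at ZT3 and 5.62 at ZT18. Dnajb1, the main heat-inducible cytosolic member, was shaped alike, ranging by 0.96 with means of 4.64 at ZT0 and 4.52 at ZT12 against 3.75 at ZT3 and 3.73 at ZT6, and with the lowest fitted mean at ZT3. Dnajb5 (0.83) was highest at ZT0, Dnaja1 (0.70) at ZT12, and Dnaja4 (0.77) and Dnajb11 (0.67) at ZT18.

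**Figure D2:**
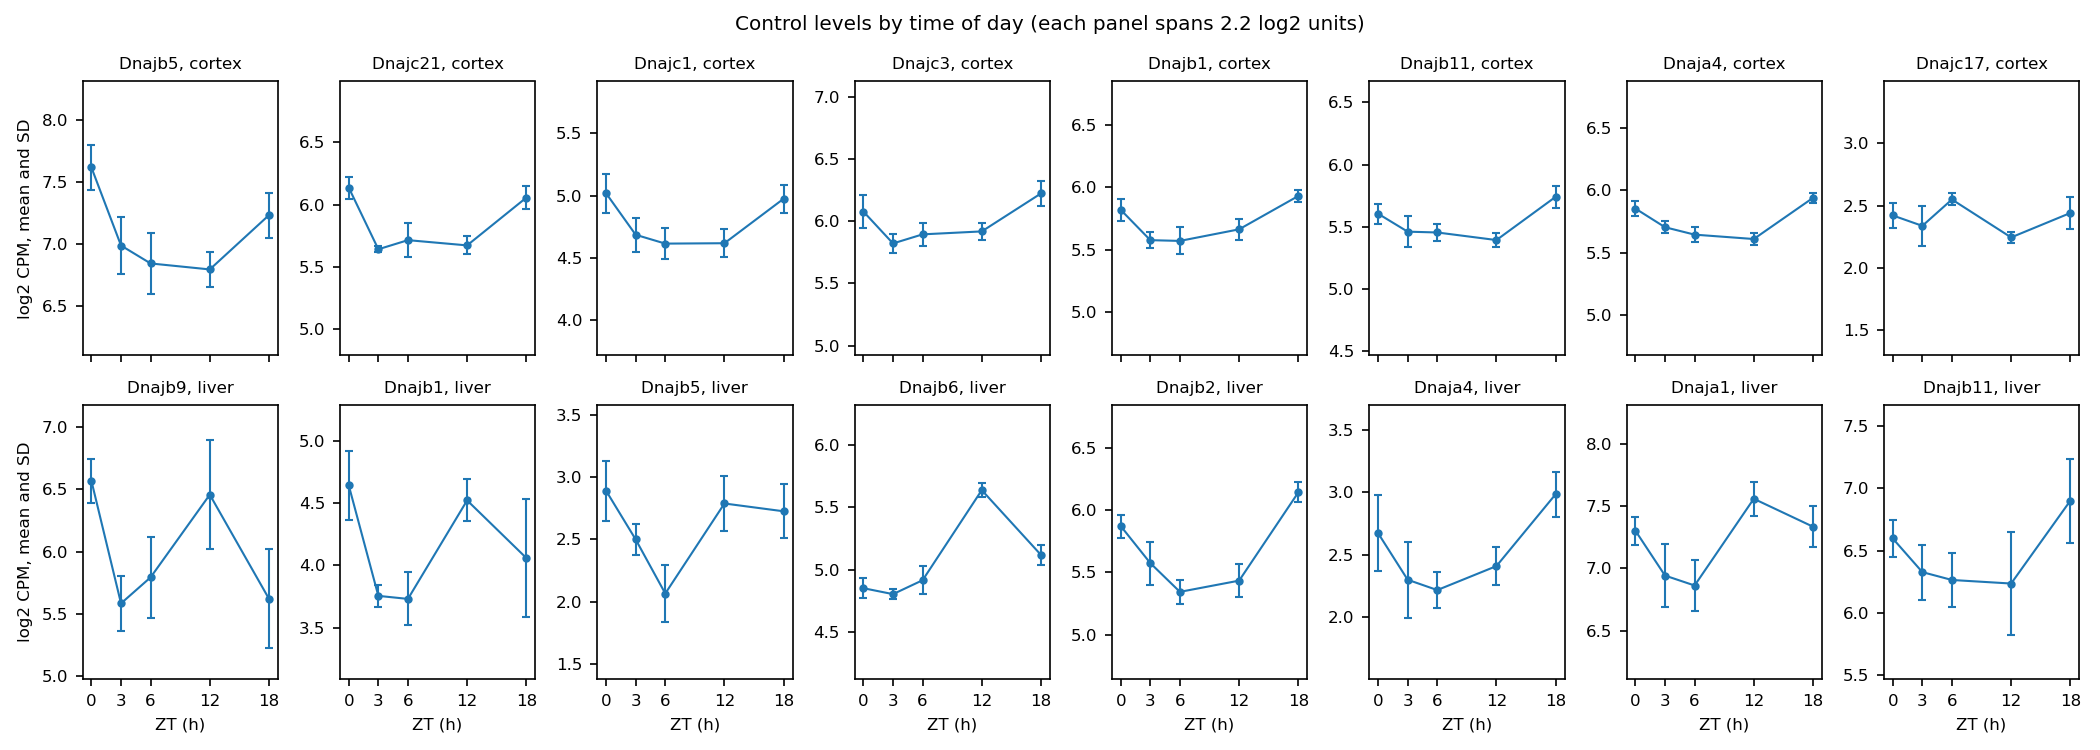
Mean log2 CPM with SD of the 8 members with the largest called range across control times in cortex (top) and liver (bottom), against zeitgeber time in h (n = 8, 3, 5, 5 and 5 mice from ZT0 to ZT18). In liver Dnajb6 is highest at ZT12 and next highest at ZT18, and Dnajb2 is highest at ZT18, while the cortical members dip between ZT3 and ZT12, apart from Dnajc17.

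During deprivation most members that moved in cortex rose. After 3 h (T27), 9 of 39 members were higher, beside 8.59% of all genes, and 1 was lower, beside 7.84%. After 6 h (T30), 9 were higher, beside 15.7%, and 5 were lower, beside 16.8%. At T27 the risers were 1 of 4 class A, 4 of 10 class B and 4 of 25 class C members. At T30 they were 2, 4 and 3, and the 5 that fell were all of class C. The median change over all members was 0.01 log2 units at T27 and -0.01 (-0.015 before rounding) at T30, beside -0.01 for all genes at both times. The class medians were 0.11 and 0.14 for class A, 0.10 and 0.04 for class B, and -0.01 and -0.05 for class C at T27 and T30, without a test.

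Of the 9 cytosolic and nuclear folding members, 5 rose in cortex at T27, beside 8.59% of all genes, and 4 at T30, beside 15.7%, and none fell. Dnajb5 had the largest change. Its values were 7.83, 8.02 and 8.03 log2 CPM at T27 against 6.74, 7.03 and 7.20 in the ZT3 controls, and 7.79, 7.89 and 7.91 at T30 against 6.61, 6.67, 6.74, 7.07 and 7.14 in the ZT6 controls. Every deprived library lay above every control. Dnajb5 was 1.96-fold higher at T27 (log2 fold change 0.97, SE 0.14, adjusted p = 9.90e-07) and 2.03-fold at T30 (1.02, SE 0.12, adjusted p = 1.08e-08). Dnajb1 (chromosome 8, 83608193 to 83612653) had 5.96, 5.98 and 6.05 at T27 against 5.51, 5.58 and 5.64, and 5.85, 5.98 and 6.07 at T30 against 5.47 to 5.73. Its groups did not overlap at either time, and it rose by 0.42 (SE 0.07, adjusted p = 7.24e-06) and 0.40 (SE 0.06, adjusted p = 9.56e-07).

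Other cytosolic members rose by less. Dnaja4, a class A member, had 5.84, 5.87 and 5.93 log2 CPM at T30, above the 5.58 to 5.70 of the ZT6 controls, and was 0.23 higher (SE 0.05, adjusted p = 7.59e-05). Of its exon bases, 44.1% overlap Wdr61 on the opposite strand, and the sources used here do not say whether the counting used strand. At T27 Dnaja4 was 0.14 higher (adjusted p = 0.0395), and that call was lost without any 1 of ZT3 libraries T3N2, T3N3 and T3N4 or of T27S2, T27S3 and T27S5 (adjusted p up to 0.18). Median centring also ended that call (adjusted p = 0.0744). Dnaja1, the most studied class A partner of Hsc70, had 7.32, 7.39 and 7.40 at T30 against 7.08, 7.18, 7.22, 7.23 and 7.27, and rose by 0.17 (SE 0.06, adjusted p = 0.0158). It missed the threshold with controls of the same batch (adjusted p = 0.0777) and without T30S1 or T30S4 (up to 0.0679). Dnajb4 rose by 0.20 at T27 (adjusted p = 0.012), a call lost without T3N2 or T27S2 (up to 0.0768), and was 0.09 higher at T30 (adjusted p = 0.185). Dnajc7, which also binds HSP90, passed at T27 by 0.12 (adjusted p = 0.0498) but not without T3N2, T3N3, T3N4, T27S2 or T27S3 (up to 0.286). Its call was also lost with median centring, with same-batch controls and without the mean trend (up to 0.0813). Dnajb6 (0.12 at T27 and -0.01 at T30), Dnajb2 (0.05 and -0.06) and Dnaja2 (0.08 and 0.10) did not pass.

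Of the 5 members whose J domain lies in the ER lumen, 3 rose and 1 fell in cortex at both T27 (beside 8.59% and 7.84% of all genes) and T30 (beside 15.7% and 16.8%). Dnajb11 (chromosome 16, 22857845 to 22879634), which hands unfolded protein to the ER HSP70 Hspa5, had 5.83, 5.93 and 5.94 log2 CPM at T27 against 5.32, 5.50 and 5.56, and 5.90, 5.98 and 5.99 at T30 against 5.39 to 5.54. The groups did not overlap. It was 0.44 higher at T27 (SE 0.07, adjusted p = 1.89e-05) and 0.50 at T30 (SE 0.07, adjusted p = 6.65e-08). Dnajc3 (chromosome 14, 118937976 to 118981697) had 6.24, 6.28 and 6.29 at T27 against 5.75, 5.81 and 5.90, and 6.29, 6.34 and 6.36 at T30 against 5.79 to 6.03. It rose by 0.45 (SE 0.08, adjusted p = 2.72e-05) and 0.44 (SE 0.07, adjusted p = 2.41e-06). Dnajc1 rose by 0.58 (SE 0.10, adjusted p = 6.00e-05), from 4.60, 4.62 and 4.84 to 5.15, 5.31 and 5.35 at T27, and by 0.47 (adjusted p = 0.000141) at T30. Its exons overlap Mllt10 on the opposite strand over 6.43% of their bases.

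Dnajc10 (chromosome 2, 80315466 to 80354043), an ER disulfide reductase, moved the other way. At T30 it had 6.33, 6.38 and 6.40 log2 CPM, below the 6.49, 6.51, 6.58, 6.59 and 6.60 of the controls, and fell by 0.19 (SE 0.04, adjusted p = 0.000743). At T27 it fell by 0.15 (adjusted p = 0.0204), but not without T3N2, T3N4, T27S2 or T27S5 (adjusted p up to 0.161). Dnajb9, which restrains the ER stress sensor IRE1, did not pass in cortex, with 0.07 at T27 (adjusted p = 0.497) and -0.05 at T30 (adjusted p = 0.585). Among the 3 members in the ER membrane with a cytosolic J domain, Dnajb12 rose by 0.11 at T30 (adjusted p = 0.0305), with overlapping groups, and lost its call without T6N2, T6N4, T30S3 or T30S4 (up to 0.22).

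Of 5 members linked to RNA, the ribosome or chromatin, 1 rose in cortex, at both times, beside the 8.59% and 15.7% of all genes that rose. Dnajc21 had 6.20, 6.36 and 6.39 log2 CPM at T27 against 5.62, 5.65 and 5.66 in the ZT3 controls, and 6.17, 6.23 and 6.26 at T30 against 5.63, 5.65, 5.65, 5.69 and 5.96. Every deprived library lay above every control, and the rise was 0.67 at T27 (SE 0.09, adjusted p = 7.26e-07) and 0.50 at T30 (SE 0.08, adjusted p = 6.72e-06). Of 5 mitochondrial members, 2 fell at T30, when 16.8% of all genes fell. Dnajc19, a part of the protein import motor, had 3.61, 3.71 and 3.80 against 3.84 to 4.07 and fell by 0.24 (SE 0.06, adjusted p = 0.0015). Dnajc30 had 4.54, 4.54 and 4.63 against 4.71 to 4.78 and fell by 0.17 (adjusted p = 0.00588). Dnajc30 shares 26.2% of its exon bases with Bud23 on the opposite strand. Dnajc18 fell by 0.12 (adjusted p = 0.0018), and Dnajc27 by 0.08 (adjusted p = 0.0365), the latter not without T6N2, T6N3, J76N2, T30S1 or T30S4 (up to 0.159).

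The 3 vesicle members measured in cortex did not pass the test during deprivation. Of all cortex genes, 8.59% rose and 7.84% fell at T27, and 15.7% rose and 16.8% fell at T30. At T30 their log2 fold changes lay between -0.04 and 0.01, and Dnajc5 (SE 0.03) and Dnajc6 (SE 0.04), among the most abundant members there, had adjusted p = 0.76 and 0.797. Dnajc12, which works with the aromatic amino acid hydroxylases, was 0.11 higher at T27 and 0.17 lower at T30 (adjusted p = 0.51 and 0.151).

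**Figure D3:**
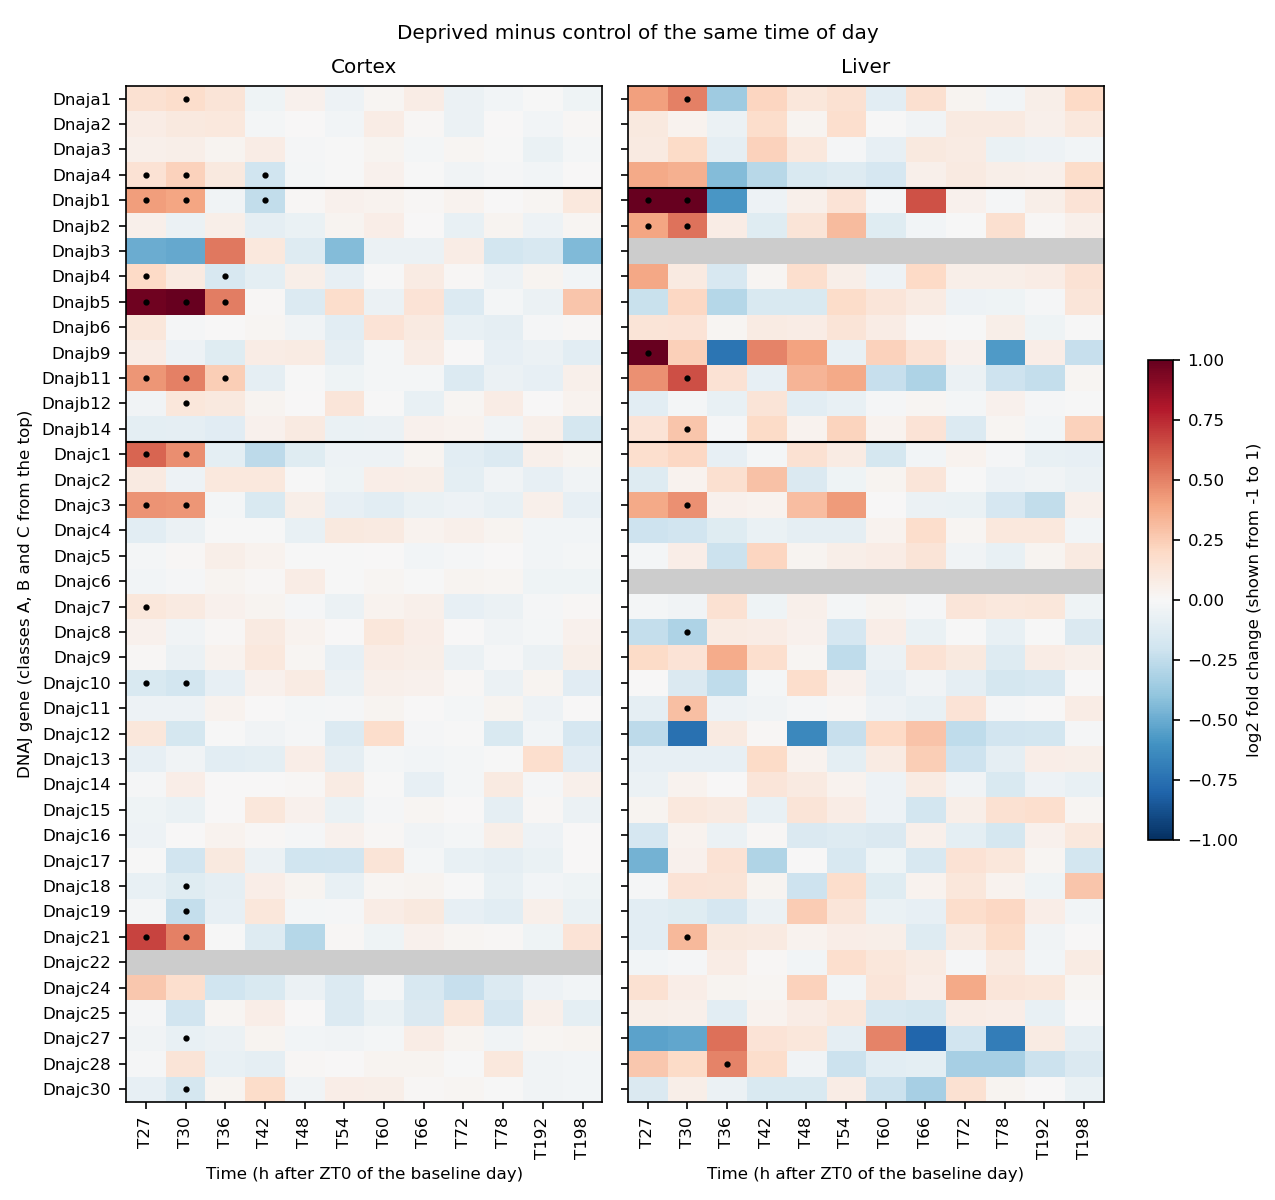
Log2 fold change of every DNAJ gene (rows, classes A, B and C) at each deprived time in h (columns) against controls of the same time of day, in cortex (left) and liver (right); dots mark adjusted p under 0.05, grey marks genes without values, and colours are capped at 1 in either direction. Called changes crowd the T27 and T30 columns, and no dot lies after T42.

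In liver, 3 of 38 members rose at T27, beside 0.847% of all genes, and none fell, beside 0.652%. All 3 were of class B. At T30, 8 rose (1 of 4 class A, 4 of 9 class B and 3 of 25 class C), beside 7.84%, and 1 of class C fell, beside 7.95%. With the unlabelled factor in the fit, the counts were 2 higher at T27, and 6 higher and 1 lower at T30, where the same fit called 134 and 1820 of 13338 genes in either direction. The median change over all members was 0.00 (-0.004 before rounding) at T27 and 0.08 at T30, beside 0.00 for all genes at both times. With controls of the same batch alone, 5 members were called at T30, and calls over all genes were not counted in that fit.

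Dnajb1 had the largest liver change. It had 4.73, 4.74 and 5.05 log2 CPM at T27 against 3.67, 3.75 and 3.85, and 4.48, 4.67 and 5.24 at T30 against 3.37, 3.69, 3.85, 3.86 and 3.88. No deprived library reached down to a control. It was 2.12-fold higher at T27 (log2 fold change 1.09, SE 0.24, adjusted p = 0.00701) and 2.01-fold at T30 (1.01, SE 0.22, adjusted p = 0.00111). Dnajb2 had 5.76, 5.87 and 5.94 at T30 against 5.23, 5.28, 5.34, 5.40 and 5.48, and its rise of 0.54 (SE 0.08) had the smallest p of any liver member (adjusted p = 5.20e-06). At T27 it rose by 0.39 (SE 0.09, adjusted p = 0.00701), from 5.39, 5.60 and 5.73 to 5.73, 6.02 and 6.15, and missed the threshold without T3N2, T27S2 or T27S5 (up to 0.112). Dnaja1 rose by 0.50 at T30 (SE 0.13, adjusted p = 0.00714), with 7.18, 7.40 and 7.54 against 6.68 to 7.20, so that the groups overlapped, and not without T30S1 (0.0916).

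Of the 5 ER lumen members, 1 passed in liver at T27, beside 0.847% of all genes, and 2 others at T30, beside 7.84%, and whether T27 and T30 differ was not tested. Dnajb9 (chromosome 12, 44205559 to 44210326) had 6.15, 6.67 and 6.95 log2 CPM at T27 against 5.34, 5.64 and 5.77, a 2.01-fold rise (1.00, SE 0.27, adjusted p = 0.0386). By T30 it had 5.83, 6.02 and 6.29 against 5.40 to 6.29 (0.24, adjusted p = 0.563). Its T27 call was lost with the unlabelled factor in the fit (adjusted p = 0.0682) and without any 1 of T3N2, T3N3, T3N4, T27S3 and T27S5 (up to 0.214). Dnajb11 was 0.46 higher at T27 (adjusted p = 0.282) and rose by 0.65 at T30 (SE 0.18, adjusted p = 0.0102), with 6.65, 6.82 and 7.05 against 6.07 to 6.59. Without T30S1 it missed the threshold (0.107). Dnajc3 was 0.38 higher at T27 (adjusted p = 0.235) and rose by 0.45 at T30 (SE 0.14, adjusted p = 0.0203), with 8.28, 8.32 and 8.44 against 7.83 to 8.14. With the unlabelled factor its change was 0.35 (adjusted p = 0.139), and the call was also lost without T30S1 or T30S3 (up to 0.0724). Same-batch controls ended the Dnajc3 call too. Dnajb14, in the ER membrane, was called at T30 (0.27, adjusted p = 0.0381) with overlapping groups, but not with the unlabelled factor (0.108), nor without T30S3, T30S4, J76N2, T6N2 or T6N4 (up to 0.135). Median centring and same-batch controls also ended the Dnajb14 call.

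The last 3 liver calls at T30 were those of Dnajc11, Dnajc21 and Dnajc8. Dnajc11, of the mitochondrial inner membrane scaffold, rose by 0.30 (adjusted p = 0.0136), with 5.89, 6.10 and 6.21 against 5.65 to 5.84, but not without T30S1 or T30S4 (up to 0.159) or with same-batch controls (0.0603). Dnajc21 rose by 0.32 (adjusted p = 0.0227), with 4.52, 4.53 and 4.85 against 4.19 to 4.51, but not without T30S1 or J76N2 (up to 0.274) or with same-batch controls (0.121). Dnajc8, a splicing-associated member, fell by 0.31 (adjusted p = 0.00891), with 4.24, 4.30 and 4.44 against 4.47 to 4.71, but not without T30S1 (0.0923). T30S1 thus bore on 6 of the 9 liver calls at T30, and without it 3 members were called. Calls over all genes were not counted without it.

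**Figure D4:**
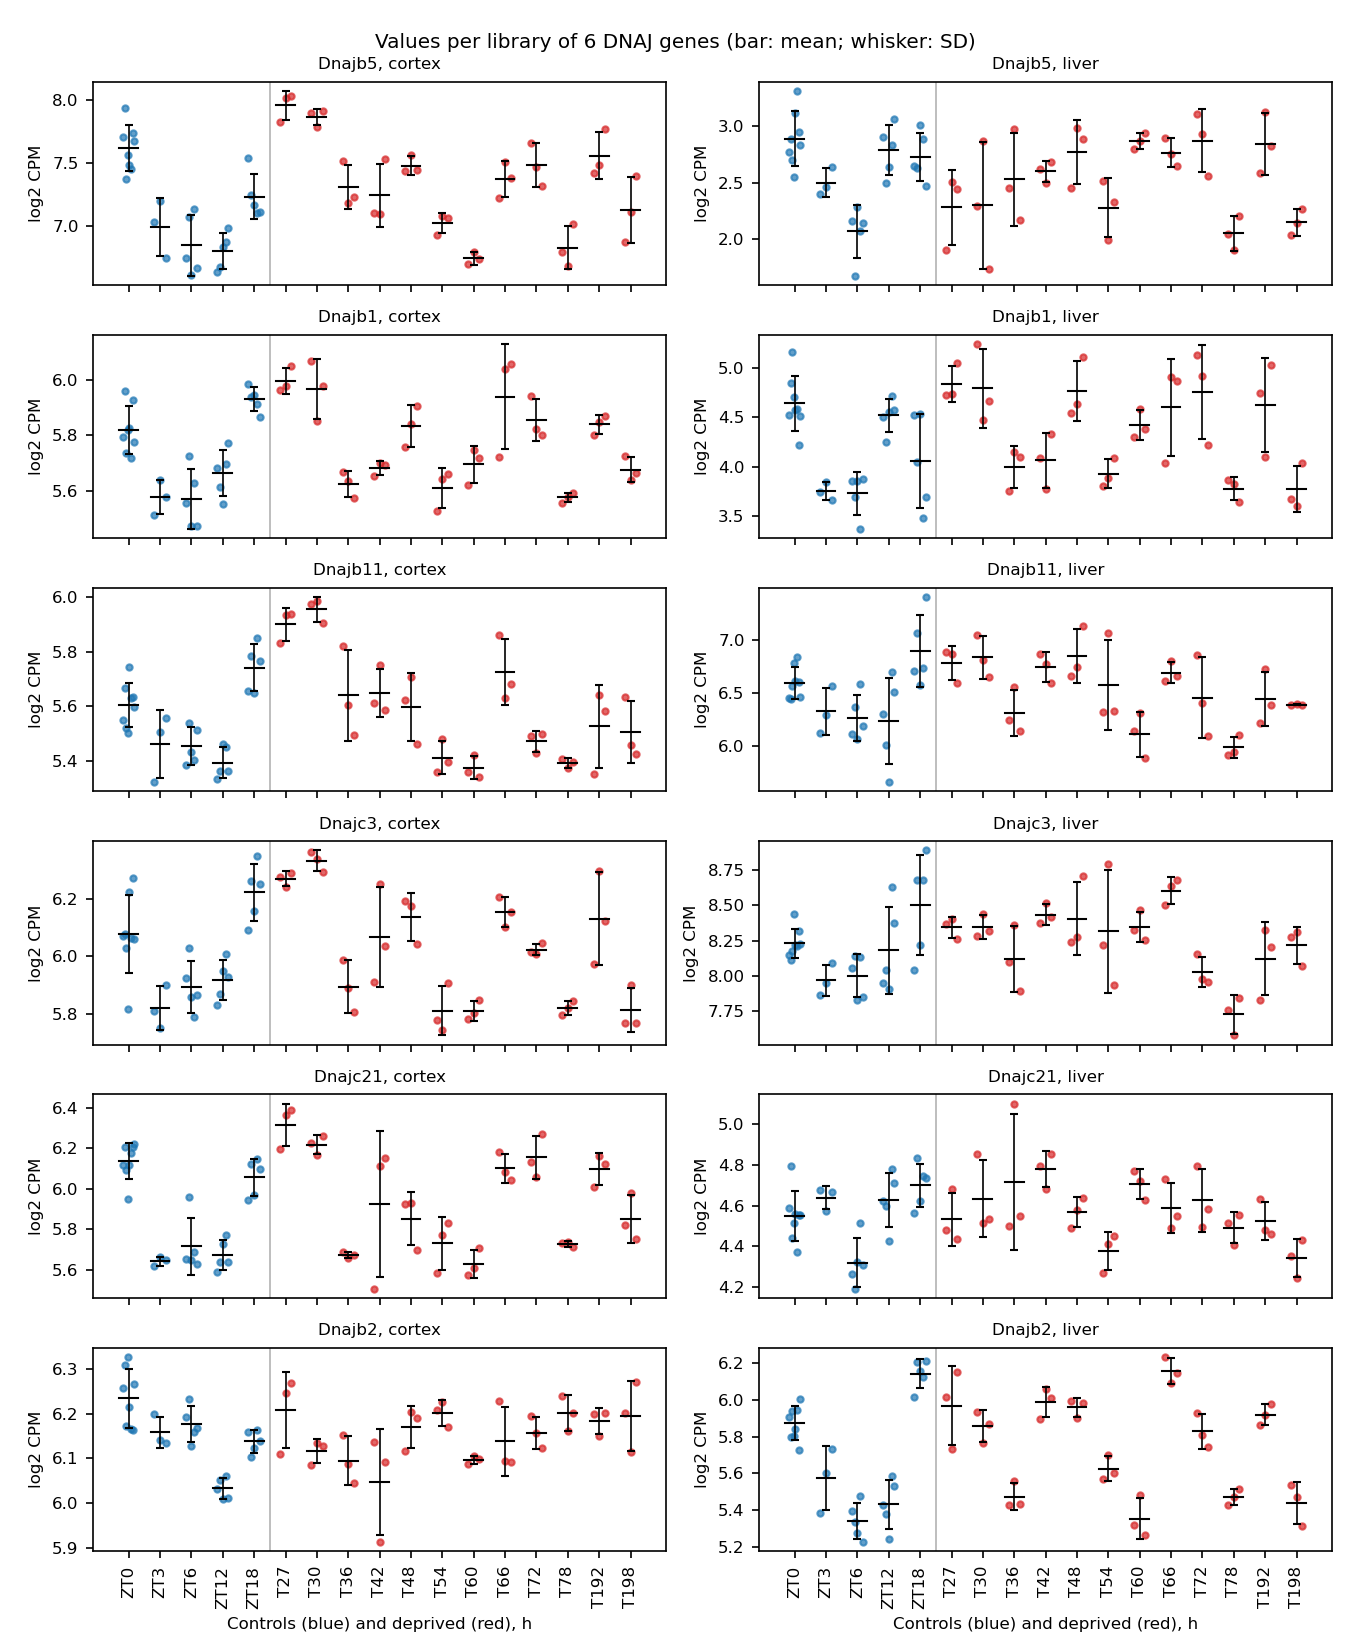
Log2 CPM of 6 DNAJ genes in each library of cortex (left) and liver (right), controls in blue by zeitgeber time and deprived mice in red by time in h; bars are means and whiskers SD. Dnajb5 is high at T27 and T30 in cortex but not in liver, and Dnajb2 the reverse, while Dnajb1 is high at both times in both tissues.

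During recovery the calls thinned out within hours. At T36, at dusk after 6 h of recovery, 2 cortical members were higher, beside 6.9% of all genes, and 1 was lower, beside 5.58%. Dnajb5 had 7.18, 7.23 and 7.51 log2 CPM against 6.63 to 6.98 and was 0.51 higher (SE 0.12, adjusted p = 0.00343). Dnajb11 had 5.49, 5.61 and 5.82 against 5.33 to 5.46 and was 0.25 higher (SE 0.07, adjusted p = 0.00865). Neither passed without T36S1 (adjusted p = 0.0688 and 0.203). Dnajb4 had 6.09, 6.17 and 6.18 against 6.27 to 6.37 and was 0.16 lower (adjusted p = 0.0365), but not with same-batch controls or median centring (up to 0.11) or without T12N4, T12N5, T36S1 or T36S2 (up to 0.17). Dnajb1 (-0.04) and Dnajc3 (-0.02) did not pass at T36.

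At T42, in the first night after deprivation, no cortical member was called higher, beside 0.643% of all genes, and 2 were lower, beside 0.392%. Both had risen during deprivation. Dnaja4 had 5.67, 5.76 and 5.79 log2 CPM against 5.89, 5.92, 5.93, 5.98 and 5.98 and was 0.20 lower (SE 0.05, adjusted p = 0.0158). Dnajb1 had 5.65, 5.69 and 5.70 against 5.87, 5.91, 5.94, 5.95 and 5.99 and was 0.25 lower (SE 0.06, adjusted p = 0.024). The groups did not overlap in either gene. Dnaja4 missed the threshold without T42S2 or T42S6 (up to 0.153) and with same-batch controls (0.0627), and Dnajb1 without T18N2, T42S2, T42S4 or T42S6 (up to 0.121).

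In liver at T36, 1 member was higher, beside 1.64% of all genes, and none was lower, beside 1.52%. It was Dnajc28, with 3.78, 3.84 and 3.93 log2 CPM against 2.82, 3.39, 3.68, 3.69 and 3.74 (0.50, SE 0.15, adjusted p = 0.0479). That call was lost with the unlabelled factor (adjusted p = 0.219), with same-batch controls, without the mean trend, and without T12N1, T12N4, T12N6, T36S1, T36S2 or T36S4 (up to 0.161). The 3 members that had risen at T27 did not pass at T36, with -0.58 for Dnajb1 (SE 0.22, adjusted p = 0.131), -0.73 for Dnajb9 (SE 0.25, adjusted p = 0.0898) and 0.07 for Dnajb2 (SE 0.08, adjusted p = 0.69). Of these, Dnajb9 passed as lower without T12N4 (-0.90, adjusted p = 0.0459).

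Later, limma called no member in either tissue. In cortex this held from T48 to T198, where 1 to 4 of 39 members had an unadjusted p under 0.05, beside 902 to 2263 of all 17108 genes. In liver it held from T42 to T198, where 1 to 6 of 38 members did, beside 250 to 1346 of 13338 genes. Few other genes were called either: in cortex 0.772% of genes were higher and 0.719% lower at T48 and none later, and in liver 2 of 13338 at T48 and none at the other late times. Over T192 and T198 the cortical members lay between -0.44 and 0.28 log2 units, the lowest being Dnajb3 and the highest Dnajb5.

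Whether the tissues differed was tested as an interaction in 1 fit of the libraries of both tissues, over 12194 genes. Of the 37 shared members, 3 differed at T27, beside 2.12% of all genes, 5 at T30, beside 12.2%, and 5 at T36, beside 4.55%. No member was called at the later times, beside 7 of 12194 genes at T48, 2 at T54, 1 at T60 and none at the others. Dnajb5 differed at all 3 times, higher in cortex by 1.19 (SE 0.25, adjusted p = 0.00214) at T27, 0.81 (SE 0.23, adjusted p = 0.0106) at T30 and 0.80 (SE 0.23, adjusted p = 0.0284) at T36. In liver its own changes were -0.22, 0.21 and -0.29. The difference was lost at T27 without T3N4 (adjusted p = 0.0549), at T30 without T30S1 or T30S4 (up to 0.221) and at T36 without T12N1, T36S1 or T36S4 (up to 0.172). Dnajc21 was higher in cortex by 0.78 at T27 (SE 0.15, adjusted p = 0.000419), a call kept without any 1 animal.

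Dnajb2 moved more in liver. The difference was -0.34 at T27 (SE 0.10, adjusted p = 0.0344) and -0.60 at T30 (SE 0.09, adjusted p = 9.88e-07). The T30 call was kept without any 1 animal. The T27 call was lost in the paired test with the animal as a replicate block (adjusted p = 0.0567) and without T3N2, T3N3, T27S2 or T27S5 (up to 0.337). Dnajb9 differed by -0.93 at T27 (SE 0.28) and missed the threshold (adjusted p = 0.0592). Dnajb14 (-0.37) and Dnajc11 (-0.36) were also higher in liver at T30, and Dnajc8 (0.28) was higher in cortex. The first was lost without T6N4, T30S3 or T30S4 (up to 0.097), the second without T30S1 (0.112) and the third without J76N1, T6N2, T30S1 or T30S3 (up to 0.188).

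At T36, Dnaja1 (0.49, adjusted p = 0.0382), Dnaja4 (0.53, adjusted p = 0.0488) and Dnajc5 (0.27, adjusted p = 0.0264) were higher in cortex relative to liver, and Dnajc28 was lower (-0.57, adjusted p = 0.0305). Apart from Dnajc28 in liver, none of these was called in either tissue alone at T36. With the replicate block Dnaja1 was lost (adjusted p = 0.0606), and with libraries centred on their median Dnaja4 was (0.0534). Leaving out 1 animal ended each call: for Dnaja1 T12N1, T12N2, T12N5, T12N6, T36S1 or T36S4 (up to 0.353), for Dnaja4 T12N1, T12N4, T12N5, T12N6, T36S1 or T36S2 (up to 0.177), for Dnajc5 T12N2, T36S1 or T36S4 (up to 0.106), and for Dnajc28 T12N1, T36S1 or T36S2 (up to 0.105). Dnajb1, the member called in both tissues at both deprivation times, was not called as different between them. At T27 and T30 its changes were 0.42 and 0.40 in cortex and 1.09 and 1.01 in liver. The missing call does not show that the responses were equal.

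**Figure D5:**
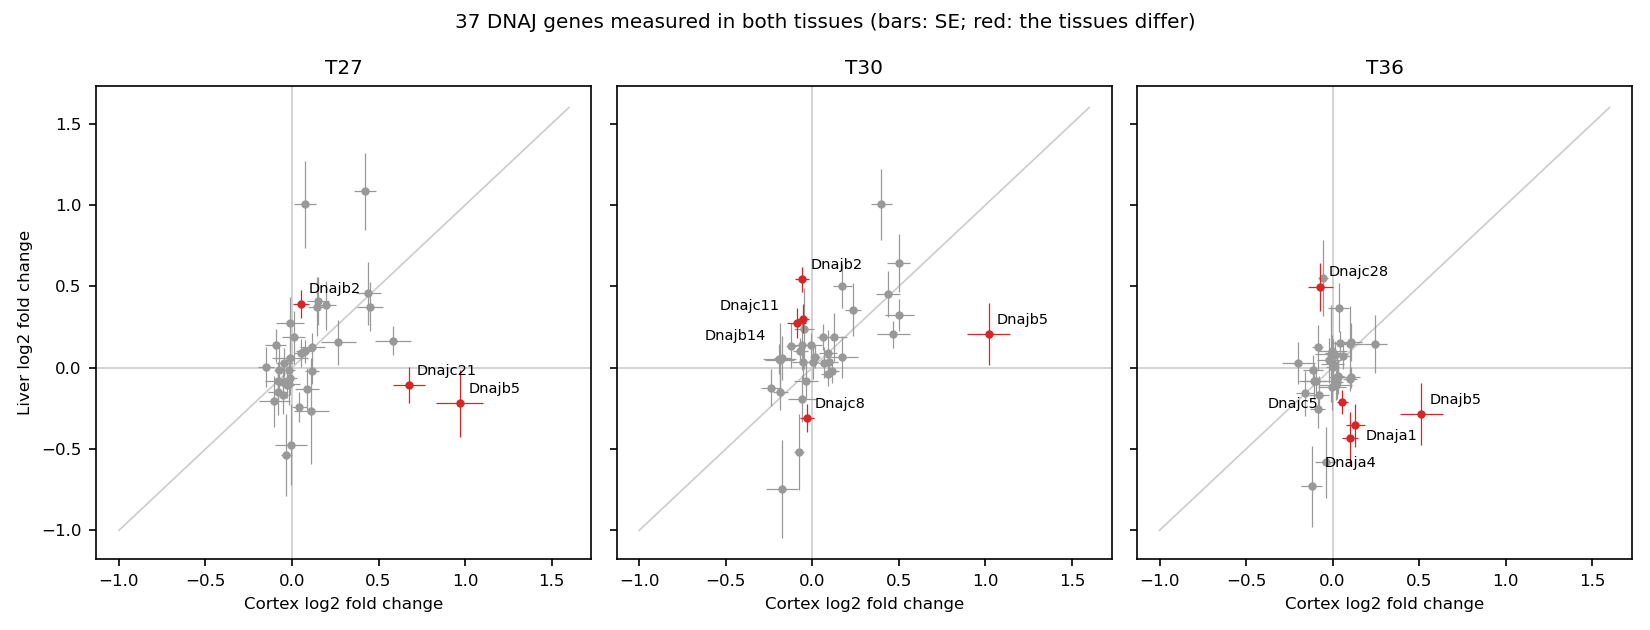
Log2 fold change in liver against that in cortex for the 37 shared members at T27, T30 and T36, with SE bars; red marks members whose tissues differed (adjusted p under 0.05) and the diagonal marks equal change. Dnajb5 lies to the right in all 3 panels, and Dnajb2 lies above the diagonal at T27 and T30.

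The HSP70 and HSP110 partners of these proteins were described from a list of 15. In cortex 5 of 15 rose and 1 fell at T27, 7 rose and 1 fell at T30, 6 rose and 1 fell at T36, and 3 fell at T42. Of all cortex genes 8.59%, 15.7% and 6.9% rose and 7.84%, 16.8% and 5.58% fell at T27, T30 and T36, and 0.392% fell at T42. In liver 3 of 14 rose at T27, 6 rose at T30 and 3 fell at T36, beside 0.847%, 7.84% and 1.52% of all genes. The ER HSP70 Hspa5, which Dnajb11 and Dnajc3 serve, rose by 0.83 and 1.08 log2 units in cortex at T27 and T30 and by 0.91 in liver at T30. The cytosolic Hspa8 rose by 0.31, 0.49 and 0.45 in cortex from T27 to T36, and in liver by 1.34 and 1.25 before falling by 0.90 at T36. Hsph1, an HSP110 that releases nucleotide from HSP70, rose by 0.42, 0.60 and 0.63 in cortex and by 1.72 and 2.18 at T27 and T30 in liver. Hspa1a and Hspa1b are near-identical copies whose reads may be split between them, so their values are uncertain.

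Of 15 nucleotide exchange and regulatory factors, 4 rose in cortex at T27, 4 rose and 2 fell at T30 and 1 rose at T36. Of all cortex genes 8.59%, 15.7% and 6.9% rose at these times, and 16.8% fell at T30. In liver 2 rose at T27, 4 rose at T30 and 1 fell at T36, beside 0.847%, 7.84% and 1.52% of all genes. Stip1, which joins HSP70 to HSP90, rose in cortex by 0.20, 0.36 and 0.44 from T27 to T36, and in liver by 0.69 and 0.99 at T27 and T30. Hsf1, the heat shock transcription factor, rose by 0.21 and 0.32 in cortex at T27 and T30 and by 0.49 in liver at T30. Bag3, a nucleotide exchange factor tied to autophagy, rose by 0.69 in liver at T30 and fell by 0.88 at T36. Sil1, the exchange factor of the ER, fell by 0.36 in cortex at T30, while the ER lumen members Dnajb11 and Dnajc3 rose.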

How the data were processed

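Cortex and liver RNA-seq values of 62 mice were used. The deposited unit is log2 CPM, normalised by the authors within each tissue: fastp, STAR 2.7.0e, edgeR and the builds mm10 and GRCm38 are named in the submitters' processing notes, and the log2 CPM scale follows from the values, which sum to 979177 to 1020372 CPM per cortex library and 919743 to 1070244 per liver library. Depth is unknown, so no counting intervals are given. The labels' protocol describes liver dissection; the sources used here give none for cortex. Entries without a gene name (77 and 35, 0.0618% and 0.0337% of the signal) were left out.

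In R 4.3.3, limma 3.58.1 (lmFit, eBayes with a mean trend) fitted all 62 libraries of a tissue in 17 groups with the label batch as a covariate (44 residual degrees of freedom), so fold changes include the batch term. Two-sided moderated tests were adjusted by Benjamini-Hochberg over all named genes, with 0.05 as the threshold. Tissue differences came from 1 fit of both tissues' libraries (88 residual degrees of freedom). Deposited cortex values hold 1 removed dimension. It was taken to be that of the label batch, which was not checked. Liver values hold 2 removed dimensions, those of an unlabelled factor, which the liver model with the label batch does not contain. Its levels (50, 8 and 4 libraries) were inferred from differences between libraries of 1 group. The commonest pattern of each group was taken as the main level. A group lying wholly in another level would not be seen, and the counts with this factor rest on that assignment. The scripts were tested on simulated data with changes added at T30 to 200 genes of each tissue and to no others. In cortex, 37.3%, 65.7% and 84.8% of changes of 0.25, 0.5 and 1 log2 units were recovered. In liver it was 8.96%, 52.2% and 71.2%, so changes of small size that did not pass may have been missed. Of 130 simulated cortex calls 5 were false, and of 96 liver calls 8. In the deposited values many more genes were called at T30 (5550 in cortex and 2107 in liver). The simulated rates therefore do not give the sensitivity of those tests.

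Libraries with the same animal code in both tissues come from 1 mouse and were paired in the block fit. Deviations of the tissues from their group means correlated by -0.0879 to 0.161 across 12194 genes. Whether mice of a group were independent beyond being separate animals is not stated. Named members were those called (up to 8 per tissue, time and direction at T27, T30 and T36, and 4 later), the 8 with the largest called daily range, up to 5 tissue differences per direction, and 15 fixed genes (Dnajb13, one of them, was not analysed here). Dnajc7 at T27 and Dnajb12 at T30, each the ninth by p, and Dnaja2, Dnajc13 and Dnajb3 were named after their values were seen. Members and lists were chosen with earlier results of these data known. Gene positions and exon lengths are GENCODE M21 (GRCm38), and all members are protein-coding. Alternatives were a filter on the lowest 20% of genes, median centring, same-batch controls, eBayes without trend, the liver factor, the replicate block and leaving out each library.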

Additional observations from a re-analysis of the deposited data

Results flagged for a closer look

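Single control libraries stood apart from the rest of their group in 10 of 212 groups of 4 to 10 libraries tested (4.72%), where chance gives about 1 in 20. The groups came from a list of 28 members, of which Dnajb13 was not analysed. In cortex, control T6N3 was the highest of 5 at ZT6 for both Dnajc21 (5.96 log2 CPM, others 5.63 to 5.69) and Dnajc1 (4.82, others 4.53 to 4.61), and both genes kept their T30 calls without it. Dnajc21 was lowest in J70N1 at ZT0 (5.95, others 6.09 to 6.22), and Dnajc10 highest in T12N4 at ZT12 (6.62, others 6.56 to 6.58). In liver, Dnajc12 was highest in T0N3 at ZT0 (5.32, others 2.48 to 3.08). Low liver values were those of Dnajc18 in T0N8 at ZT0 (3.11, others 3.33 to 3.53), Dnajc27 in T0N5 at ZT0 (-0.39, others -0.05 to 0.18), Dnaja4 in T12N2 at ZT12 (2.15, others 2.42 to 2.52), Dnajb4 in T12N1 at ZT12 (5.18, others 5.39 to 5.45) and Dnajc5 in T6N3 at ZT6 (5.89, others 6.13 to 6.23).

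The response to deprivation differed between the tissues, by the interaction test, in 13 cases. As cortex minus liver in log2 units these were Dnajb5 1.19, Dnajc21 0.78 and Dnajb2 -0.34 at T27. At T30 they were Dnajb5 0.81, Dnajc8 0.28, Dnajb2 -0.60, Dnajb14 -0.37 and Dnajc11 -0.36. At T36 they were Dnajb5 0.80, Dnaja4 0.53, Dnaja1 0.49, Dnajc5 0.27 and Dnajc28 -0.57.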

How the results depend on the processing

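No called change of a named member turned its direction under any alternative run. Of the 42 calls during and after deprivation, 20 were kept under every alternative, 11 were lost under at least 1 other setting and 22 without at least 1 library. Of the 16 daily ranges 15 were kept throughout, and of the 13 tissue differences 2. Counts of members called moved beyond 1.5 times with same-batch controls (cortex T42 from 2 to 1, liver T30 from 9 to 5, liver T36 from 1 to 0) and with batch 1 controls alone (liver controls from 29 to 17). The liver T36 count was also 0 without the mean trend and with the unlabelled factor in place of the label batch. Leaving out 1 library in turn gave 6 to 9 members in cortex at T27 (10 with all), 11 to 14 at T30 (14), 0 to 4 at T36 (3) and 0 to 3 at T42 (2), and 0 to 1 at T48, T54 and T198 (0). In liver it gave 1 to 2 at T27 (3), 3 to 9 at T30 (9) and 0 to 1 at T36 (1). For tissue differences it gave 2 to 3 at T27 (3), 2 to 6 at T30 (5) and 0 to 4 at T36 (5). Across control times it gave 19 to 22 in cortex (20) and 24 to 29 in liver (29). With the replicate block (paired by animal), tissue differences numbered 2 at T27, 6 at T30 and 4 at T36, and no call beyond Dnajb2 at T27 and Dnaja1 at T36 was lost among those named. Calls over all genes were not counted under these alternatives, apart from the unlabelled factor. The causes were not tested. Depth is unknown, so low members such as Dnajb3 and liver Dnajc27 cannot be given a counting error.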

Other observations

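Among J-domain genes whose symbols lie outside the family's naming scheme, Gak, the auxilin found outside neurons as well, was 0.11 higher in cortex at T36 (SE 0.03, adjusted p = 0.021). At T27 and T30 Gak did not pass in cortex (0.01 and 0.04, adjusted p = 0.857 and 0.434).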
